A study of Mus musculus with 12 samples.

Results

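The response of Asxl2-intact cells to RANKL was read from 6 of the 12 RNA-seq libraries of the series. They are the 3 libraries titled ASXl2flox BMM, kept in M-CSF alone, and the 3 titled ASXl2flox OC, kept in M-CSF with RANKL, called flox below. They were chosen by these titles and not by any measured value. The cells came from the bone marrow of C57BL/6 mice with floxed Asxl2 alleles and no mention of Cre. The gene, which encodes a Polycomb-group partner of the deubiquitinase BAP1, was thus left intact in both groups. Both groups shared the floxed alleles, 5 days of culture in alpha MEM with 10% FBS, detachment with trypsin and replating. They differed in the last 2 days, spent in 2% M-CSF without RANKL or with RANKL at 50 ng/ml. The other 6 libraries repeat both conditions in LysM Cre positive cells, called KO after their label, in which Cre is driven by the lysozyme gene of myeloid cells. The labels give no age or sex of the animals. Whether the 3 libraries of a condition are separate mice, cultures or preparations of 1 sample is not given either, and the p-values below speak only of the spread among the libraries, which may be technical.

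RANKL is the ligand of RANK, a receptor of the TNF receptor family on cells of the monocyte and macrophage lineage. Bound RANK recruits TRAF adaptors and activates NF-kB and AP-1 factors, which with calcium signals from ITAM-bearing adaptors induce NFATc1, the transcription factor most closely tied to osteoclast formation. M-CSF, acting through the receptor encoded by Csf1r, keeps the precursors alive and dividing. As the cells turn into osteoclasts, repressors such as IRF8 and BCL6 are lost, precursors fuse, and the multinucleated cell seals itself to bone, pumps acid through a V-ATPase and secretes cathepsin K and other proteases.

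The 6 libraries held 18834103 to 21042792 counts. In them 22166 genes had at least 1 count, and 13030 genes had enough counts over all 12 libraries to be tested. Levels are CPM, that is, counts scaled to library size, with TMM factors, and a level with ± is the mean and SD over 3 libraries. Changes are log2 fold changes of RANKL over M-CSF alone with their standard error (SE). Adjusted p-values are those of edgeR's quasi-likelihood F test with Benjamini-Hochberg adjustment over all genes tested. The first principal component of the 6 libraries held 89.6% of the variance and separated the culture conditions. The second, with 3.2%, separated M-CSF library 1 from M-CSF library 3, the pair that also differed most in a chi-square test of counts (5.43 per degree of freedom, against 1.25 to 3.01 for the other replicate pairs of the series). Without M-CSF library 1 the counts of genes that rose and fell were 4790 and 4892, and without M-CSF library 3 they were 4727 and 4769, against 4822 and 4925 with all libraries.

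Asxl2 itself (ENSMUSG00000037486, chr12:3426857-3506852, GRCm38) was present in every flox library, at 95.5, 94.0 and 89.7 CPM with M-CSF alone and 75.6, 73.6 and 71.0 CPM with RANKL. All RANKL libraries lay below all M-CSF libraries (edgeR log2 fold change -0.34 ± 0.039 SE, adjusted p = 5.86e-11). In the KO libraries it stood between 12.7 and 15.4 CPM, below every flox library. The counts sum all exons of the gene, whichever of them are floxed.

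Most of the transcriptome moved. Of the 13030 genes, 74.8% passed at an adjusted p under 0.05, 37.0% (4822 genes) upward and 37.8% (4925 genes) downward. In 75.2% the 3 libraries of one condition lay above all 3 of the other. Most of these changes were small: the quartiles of the log2 fold change over all genes were -0.45 and 0.38, with a median of -0.004. A test against a 2-fold change was therefore used to mark the larger ones. By it 4.35% of the genes (567) rose and 7.31% (953) fell past 2-fold. The risen genes took 1.86% of the counts under M-CSF alone and 5.56% with RANKL, and the fallen genes 16.8% and 5.62%. Scaling by library size alone raised the median of all genes by 0.17 and moved the share of calls that were rises from 49.5% to 62.8%. With that scaling 782 genes rose and 755 fell past 2-fold. Changes below about that shift depend on the scaling. The counts compare RNA of whole cultures, in which fewer cells of a type and less RNA per cell cannot be told apart. Numbers of risen and fallen members of the lists below are to be read beside the 37.0% and 37.8% of all genes. Numbers past 2-fold are to be read beside the 4.35% and 7.31%.

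The label OC was checked against genes that define osteoclasts. Acp5, the gene of tartrate-resistant acid phosphatase (ENSMUSG00000001348, chr9:22126727-22135711, GRCm38), stood at 28.8, 29.5 and 28.4 CPM with M-CSF alone and 129.8, 130.4 and 137 CPM with RANKL. All RANKL libraries lay above all M-CSF libraries (edgeR log2 fold change 2.19 ± 0.043 SE, adjusted p = 3.65e-40). Ctsk, which encodes the collagen-cleaving protease cathepsin K (ENSMUSG00000028111, chr3:95499256-95509362, GRCm38), stood at 31.5, 30.9 and 28.7 CPM with M-CSF alone and 81.5, 82.0 and 86.6 CPM with RANKL (edgeR log2 fold change 1.46 ± 0.049 SE, adjusted p = 7.62e-30), again with no overlap. Mmp9, the gene of a gelatinase secreted by osteoclasts, went from near absence at 1.65, 2.47 and 2.08 CPM to 35.2, 34.2 and 37.4 CPM (edgeR log2 fold change 4.10 ± 0.10 SE, adjusted p = 3.88e-36). Of the fusion genes, the defining pair moved the same way. Dcstamp, which is required for precursors to fuse, stood at 14.2, 16.4 and 13.7 CPM with M-CSF alone and 56.7, 56.0 and 60.1 CPM with RANKL (edgeR log2 fold change 1.96 ± 0.059 SE, adjusted p = 2.25e-32). Its relative Ocstamp rose from 0.520 ± 0.296 to 12.2 ± 0.441 CPM (log2 fold change 4.56, edgeR adjusted p = 1.6e-27). Car2, the carbonic anhydrase that supplies protons, had 3 counts over the M-CSF libraries and 98 over the RANKL libraries, a ratio of 32.0 after scaling (exact 95% interval 10.6 to 158, counting error only). Its level with RANKL, at 1.80, 1.43 and 1.41 CPM, was still low.

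**Figure D1:**
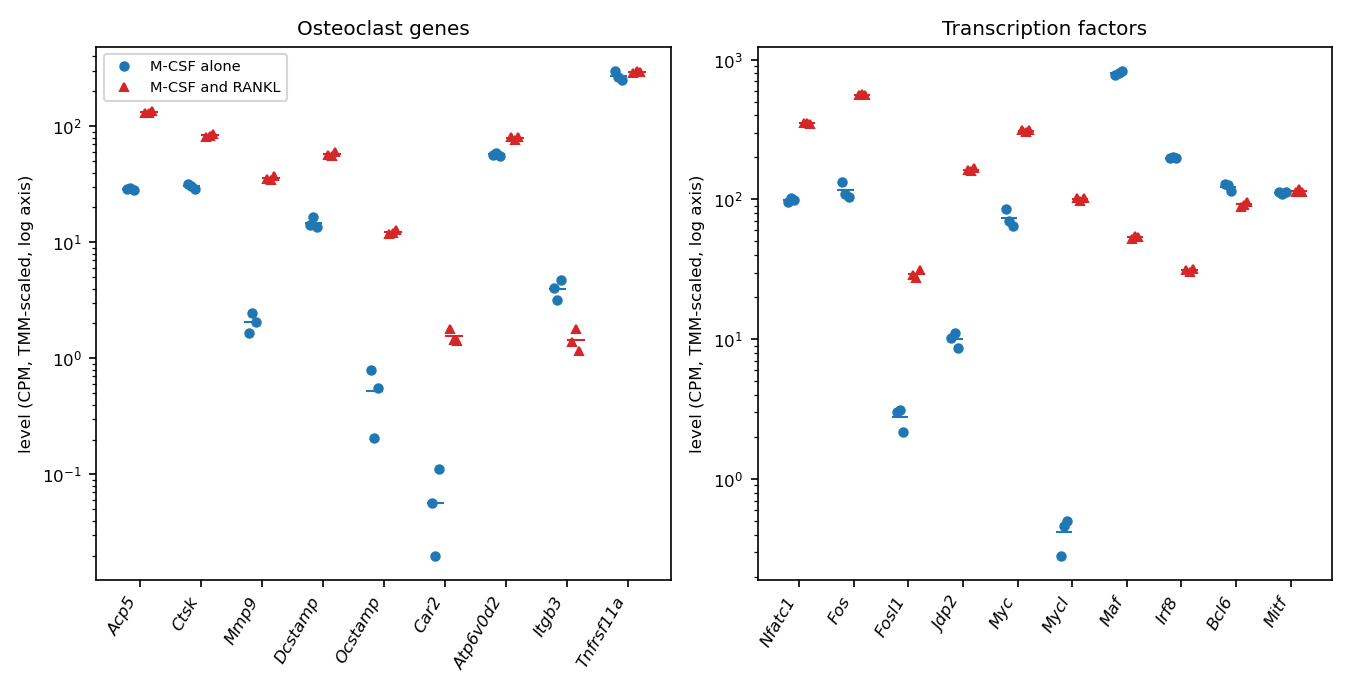
Level of osteoclast genes (left) and transcription factors (right) in each flox library, in TMM-scaled CPM on a log axis, with blue circles for the 3 M-CSF libraries, red triangles for the 3 RANKL libraries and a line at each mean. The Car2 library at 0 is drawn at 0.02 CPM. Acp5, Ctsk, Mmp9, Nfatc1 and Mycl lie higher with RANKL in every library, Itgb3, Maf and Irf8 lower, and Tnfrsf11a and Mitf overlap.

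Other defining genes did not follow. Calcr, the calcitonin receptor gene of mature osteoclasts, had 0 counts under M-CSF alone and 1 with RANKL. Oscar, an osteoclast receptor gene, had 3 and 7. Both were too low to be tested. Itgb3, the beta chain of the vitronectin receptor by which osteoclasts grip bone, fell from 4.03, 3.19 and 4.77 CPM to 1.4, 1.78 and 1.17 CPM (edgeR log2 fold change -1.46 ± 0.19 SE, adjusted p = 1.7e-09). Atp6v0d2, a V-ATPase subunit used as an osteoclast marker, rose only 1.39-fold, from 57.3 ± 1.38 to 79.4 ± 2.19 CPM. Ckb, the brain-type creatine kinase also known from osteoclasts, fell from 561 ± 40.6 to 210.1 ± 3.73 CPM (log2 fold change -1.42, edgeR adjusted p = 2.72e-23). Of the 22 listed osteoclast markers 19 were tested, and 13 rose, 5 fell and 1 did not pass (median log2 fold change 0.52), beside a median of -0.004 over all genes. Their summed level went from 2103 to 2182 CPM under M-CSF alone and from 2595 to 2630 CPM with RANKL. After 2 days, then, the libraries labelled OC carried Acp5, Ctsk, Mmp9, Dcstamp and Ocstamp at raised levels and the calcitonin receptor at or near 0.

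The receptor and its pathway came next. Tnfrsf11a, the gene of RANK, stood at 297, 267 and 249.6 CPM with M-CSF alone and 288, 298 and 295 CPM with RANKL, and the groups overlapped. Its small rise (edgeR log2 fold change 0.12 ± 0.043 SE, adjusted p = 0.022) was lost without M-CSF library 2 or 3 or RANKL library 2 or 3 (edgeR adjusted p = 0.0646 to 0.111). Of 22 genes of RANK and NF-kB signalling, 11 rose and 6 fell, beside 37.0% and 37.8% of all genes. A further 5 did not pass, and the median log2 fold change was 0.06. The 5 past 2-fold all rose, beside 4.35% of all genes. With scaling by library size alone 16 of the 22 rose and 2 fell (median 0.23). Traf1, an adaptor gene that NF-kB induces (ENSMUSG00000026875, chr2:34941750-34961772, GRCm38), showed the largest change of the list, from 9.13, 11 and 9.93 CPM to 346, 342 and 332 CPM (edgeR log2 fold change 5.08 ± 0.047 SE, adjusted p = 1.98e-53). Nfkb2, the precursor gene of the p52 subunit of the non-canonical pathway, stood at 80.0, 85.6 and 81.0 CPM with M-CSF alone and 419, 411 and 416 CPM with RANKL (edgeR log2 fold change 2.34 ± 0.032 SE, adjusted p = 7.74e-47). Its partner Relb rose by 1.15. Traf3, which holds the non-canonical pathway in check, rose from 70.3 ± 4.82 to 187 ± 2.40 CPM, and Traf2 from 24.0 ± 2.32 to 64.5 ± 0.906 CPM. The adaptor gene Traf6, the kinase gene Ikbkb and the subunit genes Nfkb1 and Rela moved little: Traf6 (log2 fold change -0.16), Ikbkb (-0.15), Nfkb1 (-0.15) and Rela (0.15) passed with changes under 0.17, the size of the scaling shift. Among the inhibitors, Nfkbia, which encodes IkB alpha and is a textbook NF-kB target, rose by 1.70 and Nfkbie by 1.41.

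The promoter window of Nfkbia is shown because it carries the letters of an NF-kB site, GGANTTTCC, at 2 places (in capitals; chr12:55492598-55492897, minus strand, 250 bases before to 50 after the start, RefSeq, GRCm38.p6).
Nfkbia: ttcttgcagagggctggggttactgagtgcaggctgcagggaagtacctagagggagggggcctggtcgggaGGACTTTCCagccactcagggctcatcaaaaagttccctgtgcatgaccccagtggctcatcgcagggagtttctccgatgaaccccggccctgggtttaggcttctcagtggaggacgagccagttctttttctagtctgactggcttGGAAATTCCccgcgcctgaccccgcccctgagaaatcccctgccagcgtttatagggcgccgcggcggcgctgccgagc
These letters, read on both strands, were found in 1.25% of the 9623 windows of tested genes and in 2.3% (10 of 434) of the windows of genes that rose past 2-fold. A match is a description of the sequence and not evidence of binding.

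Transcription factors of osteoclast formation mostly rose. Of 25 tested, 15 rose, 7 fell and 3 did not pass (median log2 fold change 0.55), and 10 rose past 2-fold, where 37.0% of all genes rose and 4.35% did so past 2-fold. Nfatc1 (ENSMUSG00000033016, chr18:80606205-80713071, GRCm38) stood at 96.5, 102 and 99.6 CPM with M-CSF alone and 352, 349.6 and 348 CPM with RANKL. The groups lay far apart (edgeR log2 fold change 1.82 ± 0.031 SE, adjusted p = 6.34e-43). Fos, the AP-1 gene without which osteoclasts do not form, stood at 134, 109 and 105 CPM with M-CSF alone and 559, 565 and 556 CPM with RANKL (edgeR log2 fold change 2.27 ± 0.088 SE, adjusted p = 6.67e-09). Its relative Fosl1 rose from 2.78 ± 0.516 to 29.2 ± 2.09 CPM (edgeR log2 fold change 3.39 ± 0.10 SE, adjusted p = 2.21e-30). Jdp2, a further AP-1 family gene (ENSMUSG00000034271, chr12:85599027-85639878, GRCm38), went from 10.2, 11.1 and 8.64 CPM to 162, 160.1 and 167 CPM (edgeR log2 fold change 4.02 ± 0.053 SE, adjusted p = 3.82e-47). Bhlhe40 (2.08), Junb (1.72) and Prdm1 (1.29), which encodes the repressor BLIMP1, rose as well. The AP-1 family did not move as one: Jun (-0.40) fell, and Fosb, an immediate early gene, fell from 1.22 ± 0.0866 to 0.0766 ± 0.0933 CPM. Batf3, the fall past 2-fold in this list, was low in both groups (1.23 to 0.224 CPM). Spi1, the gene of the lineage factor PU.1, rose by 0.55. Mitf, which encodes a factor that acts with PU.1 on osteoclast genes, stood at 112 ± 2.56 CPM under M-CSF alone and 115 ± 3.77 CPM with RANKL and did not pass (edgeR adjusted p = 0.28), a call that scaling by library size alone changed (0.21, edgeR adjusted p = 5.51e-07). Letters of an AP-1 site, TGANTCA, were held by 8.99% (39 of 434) of the windows of genes that rose past 2-fold, 7.24% (52 of 718) of those that fell and 4.74% of all windows.

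Calcium and costimulatory genes were less uniform. Of 23 genes of calcium and calcineurin signalling, 7 rose and 11 fell, beside 37.0% and 37.8% of all genes. A further 5 did not pass, and the median log2 fold change was -0.10. With scaling by library size alone 12 rose and 10 fell (median 0.07). Rcan1, a calcineurin inhibitor gene that NFAT induces, rose from 42.6 ± 1.36 to 124 ± 1.84 CPM (edgeR log2 fold change 1.54 ± 0.041 SE, adjusted p = 9.89e-35). Camk1, a calcium-dependent kinase gene, fell from 289.8 ± 7.40 to 103 ± 4.37 CPM. Of 19 ITAM costimulation genes, 3 rose, 14 fell and 2 did not pass (median log2 fold change -0.44). The risen members were 2 Src-family kinase genes, Src, which osteoclasts need to form a ruffled border and which went from 6.86, 5.92 and 6.62 CPM to 105, 103 and 103 CPM (edgeR log2 fold change 4.0 ± 0.057 SE, adjusted p = 8.22e-46), and Fgr (log2 fold change 2.50), together with the sialic acid receptor gene Siglec15 (0.52), which stayed low at 1.14 to 1.66 CPM (edgeR adjusted p = 0.0432). Under DESeq2 or with no filter 2 members rose in place of 3. The adaptor gene Tyrobp (-0.45) and the receptor gene Trem2 (-1.16) fell, and Syk (0.02) did not pass.

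Genes that hold osteoclast formation back fell more often than they rose: of 23, 6 rose, 15 fell and 2 did not pass (median log2 fold change -0.46). Past 2-fold 8 fell and 5 rose, so large changes went both ways. Of all genes 37.0% rose and 37.8% fell, and past 2-fold 4.35% rose and 7.31% fell. Irf8, which encodes a factor of macrophage and dendritic cell fate (ENSMUSG00000041515, chr8:120736358-120756694, GRCm38), stood at 198, 202 and 198 CPM with M-CSF alone and 31.2, 30.5 and 31.8 CPM with RANKL (edgeR log2 fold change -2.68 ± 0.037 SE, adjusted p = 1.55e-46). Maf, a macrophage identity gene (ENSMUSG00000055435, chr8:115682942-115707794, GRCm38), stood at 781, 808 and 826 CPM with M-CSF alone and 52.4, 54.5 and 54.1 CPM with RANKL (edgeR log2 fold change -3.91 ± 0.034 SE, adjusted p = 1.18e-54). For both genes each RANKL library lay far below each M-CSF library. Bcl6 fell by less, from 123 ± 7.49 to 92.0 ± 3.64 CPM (log2 fold change -0.42, edgeR adjusted p = 2.63e-14). The inhibitor of DNA binding genes Id1 (log2 fold change -2.39) and Id3 (-1.27) and the transcription factor gene Klf2 (-1.55) fell too. The risen members of this list included feedback inhibitors of signalling, Socs3, from 4.13 ± 0.507 to 39.0 ± 1.59 CPM, and Nfkbia and Nfkbie (above), with the deubiquitinase gene Tnfaip3 (0.43) and the transcription factor gene Klf4 (1.66).

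The machinery of the resorbing cell did not rise as a whole. Of 27 acid secretion genes, 11 rose and 14 fell, beside 37.0% and 37.8% of all genes. A further 2 did not pass, and the median log2 fold change was -0.09. With scaling by library size alone 13 rose and 9 fell (median 0.08). Tcirg1, the a3 subunit that places the proton pump at the ruffled border, stood at 702, 778 and 753 CPM with M-CSF alone and 958, 929 and 889.7 CPM with RANKL, with no overlap (edgeR log2 fold change 0.31 ± 0.031 SE, adjusted p = 9.82e-12). Atp6v0a1, the a1 subunit of the same pump, went the other way, from 448, 462 and 436 CPM to 98.3, 100.1 and 95.7 CPM (edgeR log2 fold change -2.19 ± 0.031 SE, adjusted p = 3.28e-46). Per length, Tcirg1 went from 167 to 207 CPM per kb and Atp6v0a1 from 68.4 to 14.9 CPM per kb, so the ratio of a3 to a1 rose from 2.44 to 13.9. The d subunits shifted less: Atp6v0d2 went from 21.1 to 29.2 CPM per kb and Atp6v0d1 from 114 to 78.2 CPM per kb, and the common subunit stayed the higher of the pair. Plekhm1, a lysosome trafficking gene needed for the ruffled border, fell by 1.09 on the log2 scale. Matrix-degrading genes split in the same manner. Of 25, 5 rose, 16 fell and 4 did not pass (median log2 fold change -0.56), beside 37.0% and 37.8% of all genes. Past 2-fold 4 rose (Mmp9, Acp5, Mmp14 and Ctsk) and 8 fell, beside 4.35% and 7.31% of all genes. Ctsk stayed below Ctss, the macrophage cathepsin S gene: per length Ctsk went from 20.5 to 56.3 CPM per kb and Ctss from 2209 to 1200 CPM per kb. Lgmn, the gene of the lysosomal protease legumain, fell from 1676 ± 12.2 to 377 ± 6.38 CPM.

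**Figure D2:**
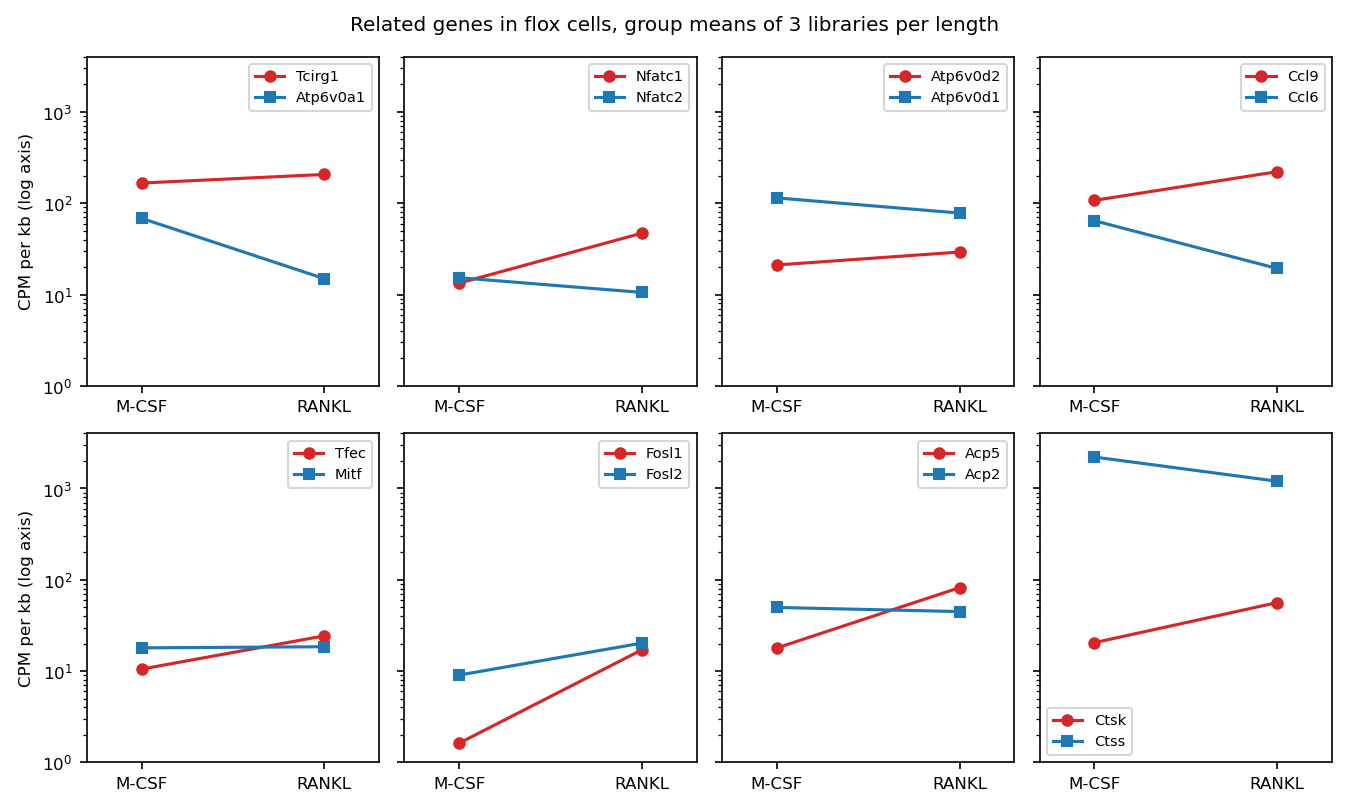
Mean level per length in flox cells (CPM per kb, log axis) under M-CSF alone and with RANKL for 8 pairs of related genes, 1 panel a pair, each point a mean of 3 libraries. Tcirg1 against Atp6v0a1, Nfatc1 against Nfatc2 and Ccl9 against Ccl6 draw apart, Atp6v0d2 approaches Atp6v0d1 and Fosl1 approaches Fosl2, and Nfatc1, Acp5 and Tfec pass their relatives.

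Of 37 integrin and actin ring genes 11 rose, 24 fell and 2 did not pass (median log2 fold change -0.36). Of all genes 37.0% rose and 37.8% fell. Dock5, which encodes a Rac activator needed for the sealing zone, rose from 67.9 ± 3.93 to 366 ± 11.1 CPM (edgeR log2 fold change 2.43 ± 0.040 SE, adjusted p = 9.82e-34). The fall of Itgb3 was shared by Itgb5, a further beta chain that pairs with alpha v. This gene (ENSMUSG00000022817, chr16:33829665-33949338, GRCm38) stood at 624, 624 and 584 CPM with M-CSF alone and 97.5, 101 and 102 CPM with RANKL (edgeR log2 fold change -2.61 ± 0.032 SE, adjusted p = 1.62e-48). Per length it lay above Itgb3 in both conditions (182 to 29.8 CPM per kb against 0.677 to 0.245 CPM per kb). Itga6, a laminin receptor chain, fell from 657 ± 41.1 to 211 ± 0.776 CPM, and Itgav, the alpha v chain, rose by 0.19. Among 21 cell fusion genes 10 rose, 9 fell and 2 did not pass (median log2 fold change 0.08). Besides Dcstamp and Ocstamp, Cd109 rose (log2 fold change 1.23), and Sirpa, the gene of a receptor for CD47, fell from 3062 ± 105 to 1027 ± 5.11 CPM.

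Related genes moved differently within pairs, and per length some pairs drew apart while others drew closer. Per length Nfatc1 went from 13.4 to 47.1 CPM per kb and Nfatc2 from 15.3 to 10.6 CPM per kb, so the ratio of Nfatc1 to Nfatc2 went from 0.872 to 4.46. Tfec, a MiT-family factor gene of macrophages and osteoclasts, rose from 18.7 ± 2.03 to 43.3 ± 1.6 CPM while Mitf overlapped between conditions. This pair crossed: per length Mitf lay 1.71-fold above Tfec under M-CSF alone, and Tfec 1.32-fold above Mitf with RANKL. Closer together came Ctsk and Ctss, with Ctss 108-fold higher under M-CSF alone and 21.3-fold with RANKL. So did Mmp9 and Mmp12, with Mmp12 99.5-fold and then 4.45-fold higher. The chemokine gene Ccl9 rose from 328 ± 12.6 to 676 ± 9.97 CPM (edgeR log2 fold change 1.04 ± 0.031 SE, adjusted p = 1.42e-31). Its relative Ccl6 fell from 116 ± 4.28 to 34.7 ± 0.440 CPM (edgeR log2 fold change -1.74 ± 0.042 SE, adjusted p = 3.1e-36). Likewise the chemokine receptor gene Ccr1 stood at 23.5, 22.2 and 21.6 CPM with M-CSF alone and 25.9, 24.6 and 28.7 CPM with RANKL, a rise of 0.23 (edgeR adjusted p = 0.00207). Ccr2, the monocyte receptor for Ccl2, fell from 78.3 ± 9.45 to 13.9 ± 0.855 CPM.

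Slc6a4, Gfi1b and Mycl rose from levels near 0 under M-CSF alone. Slc6a4, the serotonin transporter gene (ENSMUSG00000020838, chr11:76998603-77032340, GRCm38), had 0 counts in all 3 M-CSF libraries and stood at 7.22, 6.76 and 9.01 CPM with RANKL, at least 157-fold higher against a floor of 3 counts over the group. Gfi1b, which encodes a repressor of blood cell development, had 1 count against 794, a ratio of 778 (exact 95% interval 139 to 30770). Mycl, a MYC-family gene (ENSMUSG00000028654, chr4:122995652-123002485, GRCm38), stood at 0.283, 0.464 and 0.505 CPM with M-CSF alone and 103, 97.7 and 102 CPM with RANKL (edgeR log2 fold change 7.89 ± 0.10 SE, adjusted p = 1.87e-47). Further large rises were those of Pgf and Vegfc, 2 growth factor genes of the VEGF family (6.08 and 5.83), the cytochrome P450 gene Cyp2ab1 (5.53) and Zbtb32 (5.50). Met, the hepatocyte growth factor receptor gene, went from 1.25, 1.08 and 1.46 CPM to 52.3, 51.9 and 53.8 CPM (edgeR log2 fold change 5.38 ± 0.098 SE, adjusted p = 1.33e-41). Diras2, Traf1, Lrrc10b, Scin, Gpr132 and Flrt3 were also among the 15 largest rises, with log2 fold changes of 4.64 to 5.13. Further genes with 3 counts or fewer over the M-CSF libraries included Il34, a second ligand of the M-CSF receptor (1 against 123 counts), Tnfrsf9, which encodes the T cell costimulator CD137 (1 against 246), and Ido2, a tryptophan-degrading enzyme gene (2 against 148).

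Some genes went the other way, from low levels to near absent. The 6 named ones had 3 counts or fewer over the RANKL libraries. Dock3, a Rac activator gene of neurons, went from 43 to 2 counts (ratio 0.0456, exact 95% interval 0.00535 to 0.175). Slc14a1, the urea transporter gene, went from 33 to 1, and Ccr1l1, Ccdc152, Coro6 and Olfr110 from 38, 37, 29 and 18 counts to 3 each. All 6 had under 1 CPM under M-CSF alone.

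The 10 largest gains in level among genes past 2-fold were in genes that were well expressed under M-CSF alone. Nrp2, a semaphorin and VEGF co-receptor gene (ENSMUSG00000025969, chr1:62703285-62818695, GRCm38), stood at 902, 857 and 813 CPM with M-CSF alone and 2335, 2349 and 2363 CPM with RANKL (edgeR log2 fold change 1.45 ± 0.029 SE, adjusted p = 6.7e-38). Ncl, the gene of the nucleolar protein nucleolin, stood at 654, 614 and 633 CPM with M-CSF alone and 1735, 1788 and 1795 CPM with RANKL (edgeR log2 fold change 1.48 ± 0.028 SE, adjusted p = 5.05e-41). Lmna, the lamin A gene, stood at 776, 707 and 659.7 CPM with M-CSF alone and 1844, 1862 and 1827 CPM with RANKL (edgeR log2 fold change 1.37 ± 0.037 SE, adjusted p = 1.01e-20). For each of these 3 genes the lowest RANKL library was above the highest M-CSF library. Cd44, which encodes a hyaluronan receptor, Anxa1, the annexin A1 gene, Ehd1, Pik3r5 and Zmiz2 rose by 1.17 to 1.86. Mdm2, the ubiquitin ligase gene that limits p53, rose from 174 ± 8.69 to 779 ± 3.65 CPM (edgeR log2 fold change 2.16 ± 0.031 SE, adjusted p = 1.46e-45). Ppp2r1b, a phosphatase 2A scaffold gene, rose from 86.8 ± 5.07 to 816 ± 14.6 CPM (edgeR log2 fold change 3.23 ± 0.033 SE, adjusted p = 8.49e-52). Of the exonic bases of Ppp2r1b 22.2% overlap another gene, Sik2, and without strand the reads of both cannot be told apart.

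**Figure D3:**
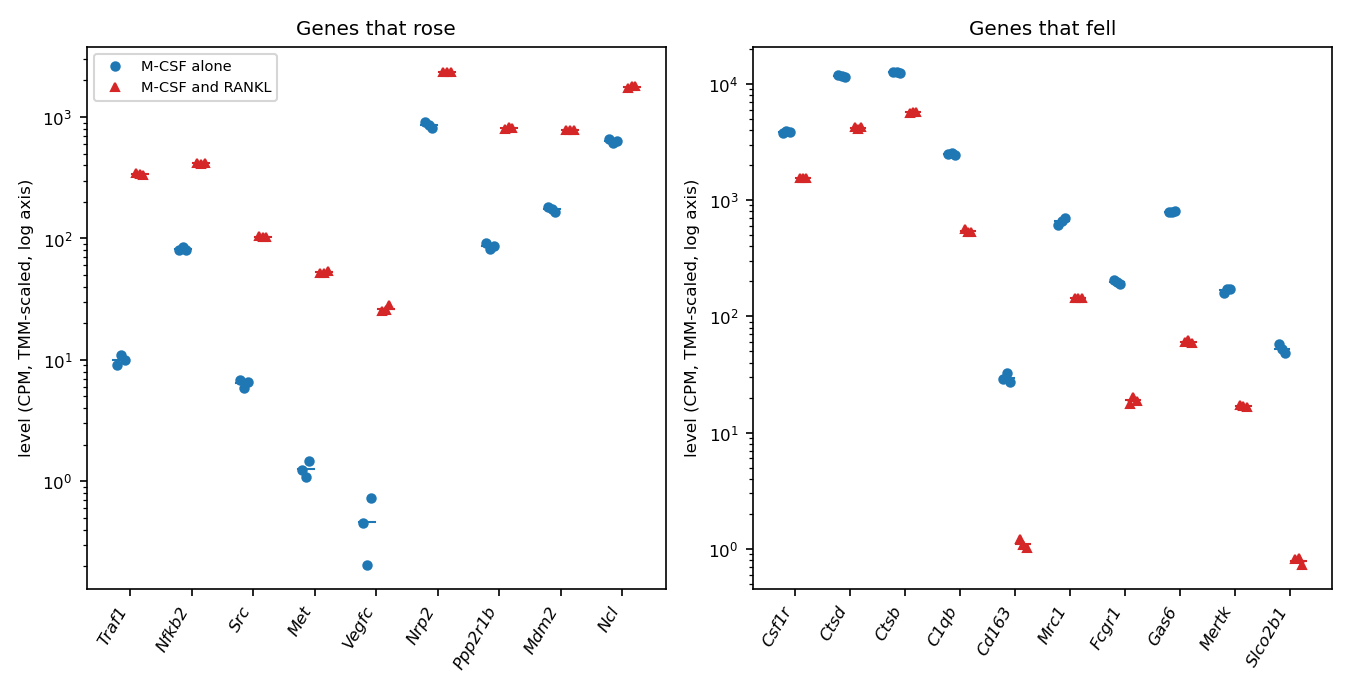
Level in each flox library, in TMM-scaled CPM on a log axis, of 9 genes that rose (left) and 10 that fell (right), with blue circles for the 3 M-CSF libraries, red triangles for the 3 RANKL libraries and a line at each mean. In all 19 genes the conditions do not overlap, as in 75.2% of all genes tested. For those taken from the largest rises and falls this was a condition of the choice and is not a result.

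Genes of growth rose together. Myc (ENSMUSG00000022346, chr15:61985391-61990374, GRCm38) stood at 84.7, 69.9 and 64.8 CPM with M-CSF alone and 314, 302 and 311 CPM with RANKL, with M-CSF library 1 the highest of its group and no overlap (edgeR log2 fold change 2.08 ± 0.077 SE, adjusted p = 1.41e-09). Of 28 ribosome biogenesis genes all rose (median log2 fold change 1.32), and 22 rose past 2-fold, where 37.0% and 4.35% of all genes did so. Dkc1, the pseudouridine synthase dyskerin, rose from 35.8 ± 3.46 to 149 ± 4.92 CPM (edgeR log2 fold change 2.06 ± 0.043 SE, adjusted p = 1.7e-38). The nucleolar gene Nolc1 rose from 87.5 ± 7.86 to 296 ± 1.26 CPM and Polr1b, an RNA polymerase I subunit, from 26.2 ± 1.03 to 82.3 ± 1.94 CPM. The lowest members of the list, Pes1 (0.67) and Polr1c (0.67), passed as well. Of the MYC antagonists, Mxd4 fell from 117 ± 11.7 to 45.6 ± 1.90 CPM and Mxd1 rose from 17.4 ± 1.77 to 26.8 ± 1.3 CPM.

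The windows of Nop2 (chr6:125131633-125131932, plus strand) and Nle1 (chr11:82908346-82908645, minus strand), which rose by 1.55 and 1.6, are shown as members of this list that hold the E-box CACGTG, the site read by MYC and MAX, in capitals.
Nop2: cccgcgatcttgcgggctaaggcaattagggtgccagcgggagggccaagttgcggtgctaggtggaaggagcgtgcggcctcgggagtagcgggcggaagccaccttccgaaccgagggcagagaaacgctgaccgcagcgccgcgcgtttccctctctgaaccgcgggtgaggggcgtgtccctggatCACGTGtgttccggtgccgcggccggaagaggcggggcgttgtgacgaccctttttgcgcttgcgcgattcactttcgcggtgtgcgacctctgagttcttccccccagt
Nle1: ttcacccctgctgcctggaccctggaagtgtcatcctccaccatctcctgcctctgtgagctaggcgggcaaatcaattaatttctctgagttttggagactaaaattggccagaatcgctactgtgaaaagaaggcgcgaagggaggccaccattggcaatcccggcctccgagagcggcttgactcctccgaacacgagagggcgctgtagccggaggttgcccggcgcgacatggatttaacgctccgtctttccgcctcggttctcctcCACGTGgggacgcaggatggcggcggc
This E-box was found in 30.4% (7 of 23) of the ribosome biogenesis windows, in 12% of the windows of all genes that rose past 2-fold and in 10.4% of all windows. The share was 26.3% (5 of 19) for acid secretion, which did not rise as a whole, and 11.1% (3 of 27) for the mitochondrial ribosome, which did. Whether it follows the direction of the lists was not tested.

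Mitochondrial genes encoded in the nucleus rose by small amounts. Of 34 genes of the mitochondrial ribosome 32 rose, none fell and 2 did not pass (median log2 fold change 0.65), led by Mrpl45 (1.18) and Mrpl12 (1.14). Of 48 nuclear genes of the respiratory chain 42 rose, 2 fell and 4 did not pass (median log2 fold change 0.27), none past 2-fold. Of 19 genes of mitochondrial biogenesis 16 rose, 1 fell and 2 did not pass (median log2 fold change 0.33). Twnk, the mitochondrial DNA helicase gene, rose from 9.10 ± 0.869 to 22.4 ± 0.826 CPM, and Ppargc1b, a coactivator that promotes mitochondrial biogenesis in osteoclasts, from 6.07 ± 0.933 to 10.6 ± 0.671 CPM. The genes encoded in mitochondrial DNA did not follow, and 6 of the 13 listed had too few counts to be tested. Of the 7 tested, none rose, 1 fell and 6 did not pass (median log2 fold change -0.13). The median became 0.03 with scaling by library size alone. In KO cells all 7 rose (median 0.42), but none of the 7 passed the test of the difference between genotypes against 1.5-fold. The member that fell in flox cells, mt-Co1, was lost with scaling by library size alone (edgeR adjusted p = 0.379), with no filter (0.0527), and without M-CSF library 2 or 3 or RANKL library 2 or 3 (0.0628 to 0.119). Of 27 genes of the TCA cycle and pyruvate entry 20 rose and 4 fell, beside 37.0% and 37.8% of all genes. A further 3 did not pass (median log2 fold change of the list 0.30). Idh3a, from 71.7 ± 5.80 to 152 ± 2.45 CPM, was the rise past 2-fold.

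Amino acid supply genes rose further. Of 29, 20 rose, 5 fell and 4 did not pass (median log2 fold change 0.76), and 10 rose past 2-fold, beside 4.35% of all genes. Slc7a5, the large neutral amino acid transporter gene, stood at 34.1, 30.6 and 29.4 CPM with M-CSF alone and 142, 141 and 146 CPM with RANKL (edgeR log2 fold change 2.19 ± 0.045 SE, adjusted p = 4.06e-39). The cystine transporter gene Slc7a11 rose from 5.77 ± 0.441 to 24.8 ± 0.590 CPM and the arginine transporter gene Slc7a2 from 27.9 ± 0.536 to 108 ± 2.09 CPM. The mitochondrial serine enzyme gene Shmt2 rose by 1.76. Slc3a2, the heavy chain that pairs with Slc7a5 and Slc7a11, fell by 0.91 on the log2 scale. Of 26 glycolysis genes 11 rose, 12 fell and 3 did not pass (median log2 fold change 0.05), beside 37.0% and 37.8% of all genes, and with scaling by library size alone 13 rose and 9 fell. The monocarboxylate transporter gene Slc16a1 rose from 28.0 ± 1.92 to 102 ± 4.08 CPM and the lactate dehydrogenase gene Ldha by 0.80. The hexokinase genes Hk3 and Hk2 fell, Hk3 from 443 ± 10.7 to 83.3 ± 6.04 CPM and Hk2 from 128 ± 10.3 to 40.1 ± 2.40 CPM.

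Of 29 G2/M and mitosis genes all rose (median log2 fold change 0.63). Of 33 genes of G1/S and DNA replication 26 rose, 4 fell and 3 did not pass (median log2 fold change 0.24). Ube2c, which drives exit from mitosis, stood at 54.8, 55.6 and 62.1 CPM with M-CSF alone and 156, 148 and 156 CPM with RANKL (edgeR log2 fold change 1.42 ± 0.040 SE, adjusted p = 5.12e-32), although 22.8% of its exonic bases overlap Tnnc2. The mitotic checkpoint kinase gene Bub1 rose from 53.5 ± 3.05 to 117 ± 6.83 CPM, and Cdk6, a G1 kinase gene, from 81.8 ± 8.66 to 134 ± 1.59 CPM. Ccnd2, the D-type cyclin gene that fell past 2-fold, was low (6.90 to 2.19 CPM). Of 5 replication-dependent histone genes tested none rose, 3 fell and 2 did not pass (median log2 fold change -0.77), and their summed level ran from 45.8 to 48.6 CPM under M-CSF alone and from 27.3 to 30.6 CPM with RANKL. Of 10 CDK inhibitor and pocket protein genes 2 rose, 5 fell and 3 did not pass (median log2 fold change -0.29). The p21 gene Cdkn1a rose from 444 ± 29.1 to 558 ± 14.2 CPM. The p27 gene Cdkn1b fell from 39.1 ± 4.95 to 27.5 ± 1.17 CPM and the retinoblastoma gene Rb1 from 117 ± 4.33 to 60.1 ± 2.39 CPM.

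Macrophage genes formed the other side of the response. Of 23 tested macrophage markers all fell (median log2 fold change -1.97), and 16 fell past 2-fold, against 37.8% and 7.31% of all genes. Their summed level went from 47910 to 48940 CPM under M-CSF alone and from 19920 to 20340 CPM with RANKL. Csf1r, the M-CSF receptor gene (ENSMUSG00000024621, chr18:61100598-61132149, GRCm38), stood at 3783, 3907 and 3859 CPM with M-CSF alone and 1537, 1533 and 1550 CPM with RANKL (edgeR log2 fold change -1.32 ± 0.025 SE, adjusted p = 3.7e-41). C1qb, a chain of the complement component C1q, stood at 2494, 2544 and 2441 CPM with M-CSF alone and 564, 535 and 531 CPM with RANKL (edgeR log2 fold change -2.20 ± 0.027 SE, adjusted p = 2.94e-48). C1qa (-2.38) and C1qc (-2.17) fell with it. Lyz2, the lysozyme gene and one of the most abundant, had a log2 fold change of -1.04, and Cd68, the least changed member, of -0.48. Letters of a PU.1 site, GAGGAAG, were held by 40.0% (6 of 15) of the windows of this list and 13.6% of all windows. Among all genes past 2-fold the share differed little by direction, 17.5% (126 of 718) of the windows of those that fell and 15.4% (67 of 434) of those that rose.

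The 15 largest falls were led by Slco2b1, an organic anion transporter gene (ENSMUSG00000030737, chr7:99657804-99711340, GRCm38), at 57.7, 52.2 and 48.6 CPM with M-CSF alone and 0.812, 0.840 and 0.731 CPM with RANKL (edgeR log2 fold change -6.04 ± 0.11 SE, adjusted p = 3.11e-41). Next came Gpr34, a lysophospholipid receptor gene (log2 fold change -5.53), and Hpgd, which breaks down prostaglandins and fell from 68.3 ± 7.39 to 2.19 ± 0.161 CPM. Cd163, the haemoglobin scavenger receptor gene, went from 28.9, 32.2 and 27.0 CPM to 1.22, 1.09 and 1.02 CPM (edgeR log2 fold change -4.72 ± 0.11 SE, adjusted p = 1.68e-36). The purinergic receptor genes P2ry13 (-4.46) and P2ry12 (-3.93), Fcrls (-4.22), Plxdc2 (-4.21), Rnf150 (-3.86), Tpbgl (-3.99), Slc46a3 (-3.78) and the iron exporter gene Slc40a1 (-3.72) fell as far or nearly so. The 15 were picked only among genes whose conditions do not overlap. Rnase4 fell from 354 ± 10.7 to 19.4 ± 1.31 CPM and Ang, its neighbour, from 17.2 ± 2.35 to 0.907 ± 0.276 CPM. These 2 ribonuclease genes share exons, 51.1% of those of Ang by length, and cannot be counted apart.

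Clearance and sensing genes fell with them. Of 17 scavenger and clearance receptor genes all fell (median log2 fold change -1.34). Gas6, which bridges dying cells to their receptors, stood at 788, 797 and 801 CPM with M-CSF alone and 60.2, 62.2 and 59.3 CPM with RANKL (edgeR log2 fold change -3.71 ± 0.032 SE, adjusted p = 1.18e-54). Mertk, the receptor of Gas6, stood at 159, 172 and 171 CPM with M-CSF alone and 17.4, 16.8 and 16.8 CPM with RANKL (edgeR log2 fold change -3.30 ± 0.044 SE, adjusted p = 6.56e-47). Mrc1, the mannose receptor gene, fell from 656 ± 42.4 to 144 ± 0.459 CPM, Stab1 from 4205 ± 147 to 1009 ± 39.9 CPM and Cd36 from 1910 ± 74.7 to 593 ± 16.3 CPM. Of 7 genes of Fc gamma receptors and related receptors all fell (median log2 fold change -1.96). Fcgr1, the high-affinity IgG receptor gene, fell the most after Fcrls, at 204, 197 and 192 CPM with M-CSF alone and 17.7, 20.4 and 18.8 CPM with RANKL (edgeR log2 fold change -3.38 ± 0.043 SE, adjusted p = 1.09e-47). Of 20 Toll-like receptor and adaptor genes none rose, 18 fell and 2 did not pass (median log2 fold change -0.79). The list had Tlr8 (-3.02), Tlr1 (-2.23) and Tlr13 (-1.94) furthest down and Tlr2 (-0.04) not passing. Of 15 complement genes 1 rose, 12 fell and 2 did not pass (median log2 fold change -1.0), beside 37.0% and 37.8% of all genes. The 1 that rose was C3, the central component, from 21.7 ± 0.716 to 113 ± 2.28 CPM (edgeR log2 fold change 2.38 ± 0.044 SE, adjusted p = 5e-41).

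**Figure D4:**
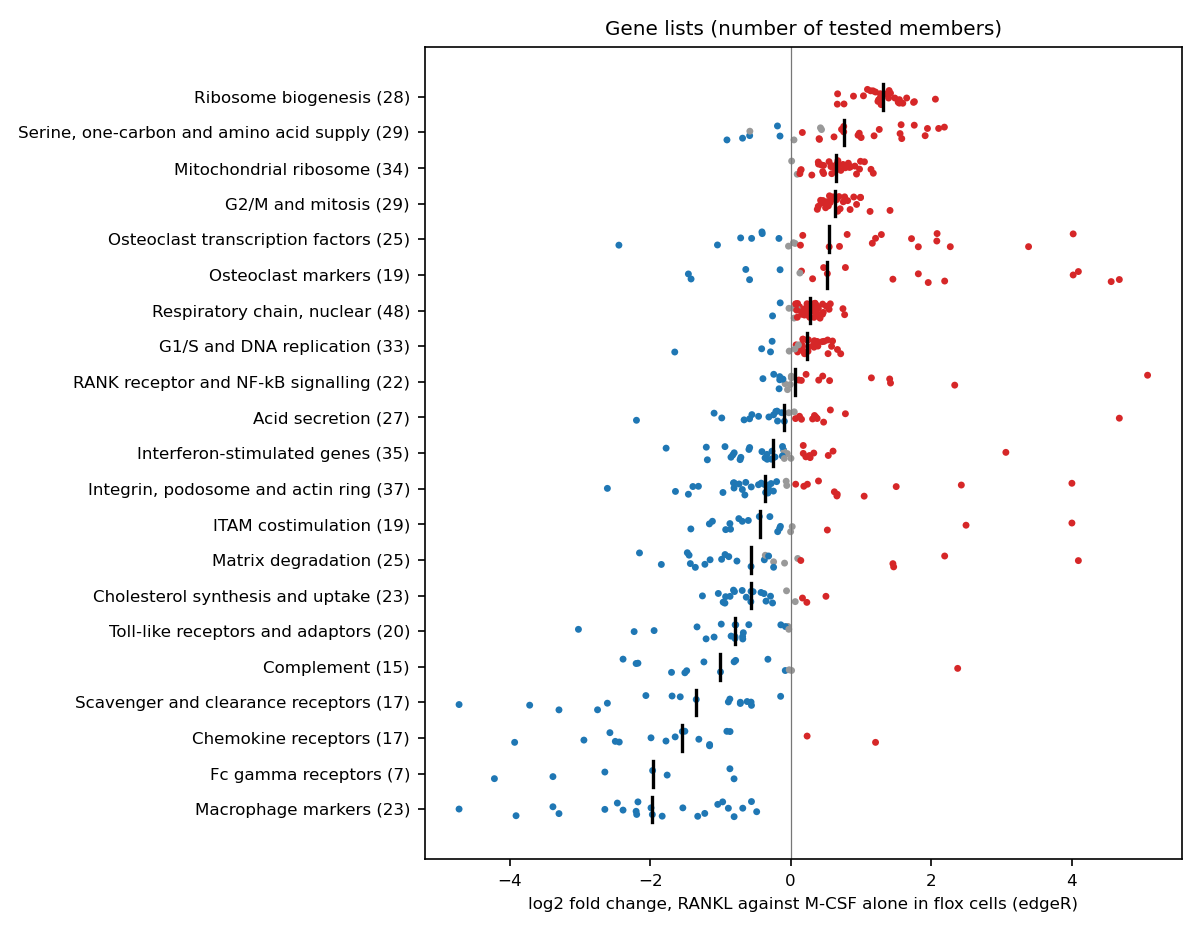
Log2 fold change (RANKL over M-CSF alone in flox cells, edgeR) of each tested member of 21 gene lists, red where the gene rose, blue where it fell and grey where it did not pass, with a black bar at the list's median. Ribosome biogenesis genes lie to the right and macrophage markers to the left of 0 throughout, and the osteoclast, acid secretion and integrin lists spread to both sides.

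The cathepsin genes Ctsd and Ctsb fell from high levels. Ctsd, the cathepsin D gene, stood at 11840, 11670 and 11330 CPM with M-CSF alone and 4220, 4109 and 4244 CPM with RANKL (edgeR log2 fold change -1.47 ± 0.024 SE, adjusted p = 2.8e-43). Ctsb, the cathepsin B gene, stood at 12540, 12710 and 12380 CPM with M-CSF alone and 5645, 5679 and 5672 CPM with RANKL (edgeR log2 fold change -1.15 ± 0.023 SE, adjusted p = 4.92e-40). A share of 16.2% of its exonic length is also annotated to Fdft1. In both genes the conditions lay far apart. Of 27 genes of fatty acid oxidation and lipid handling 7 rose, 8 fell and 12 did not pass (median log2 fold change -0.05), a balance that became 13 against 6 with scaling by library size alone. Of 23 genes of cholesterol synthesis and uptake 3 rose, 18 fell and 2 did not pass (median log2 fold change -0.56). Insig1, a sterol sensor gene, fell from 41.9 ± 0.574 to 17.6 ± 1.27 CPM and the synthase gene Hmgcs1 from 98.3 ± 1.81 to 48.2 ± 2.28 CPM. Of 15 genes of sterol efflux and LXR targets 3 rose, 10 fell and 2 did not pass (median log2 fold change -0.58). The apolipoprotein gene Apoe fell from 2926 ± 139 to 1187 ± 33.9 CPM, Abca1, the cholesterol efflux pump gene, from 184 ± 14.4 to 59.4 ± 2.52 CPM and Rxra, the partner of LXR, from 247 ± 4.51 to 65.7 ± 1.53 CPM. Hmox1, the haem-degrading enzyme gene, fell from 872 ± 103 to 192 ± 3.24 CPM, and the hepcidin regulator gene Hfe from 89.5 ± 3.20 to 25.5 ± 0.501 CPM. Of 16 iron genes 4 rose, 10 fell and 2 did not pass (median log2 fold change -0.41). In the NADPH oxidase family Nox1 rose from 0.342 ± 0.118 to 6.51 ± 0.606 CPM, and Cybb, the phagocyte oxidase gene, fell (log2 fold change -0.98).

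The window of Ctsd (chr7:142387778-142388077, minus strand) is shown for its E-boxes: capitals mark TCANGTGA, the form read by MITF, TFEB and TFE3, and CACGTG, which overlaps it in one of the places.
Ctsd: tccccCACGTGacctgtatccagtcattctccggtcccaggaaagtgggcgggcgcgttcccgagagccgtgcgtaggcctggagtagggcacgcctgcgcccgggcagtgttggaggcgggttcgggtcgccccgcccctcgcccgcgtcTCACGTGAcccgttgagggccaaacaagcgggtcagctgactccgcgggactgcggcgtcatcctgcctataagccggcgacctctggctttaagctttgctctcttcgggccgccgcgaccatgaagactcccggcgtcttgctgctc
TCANGTGA was held by 16.7% (3 of 18) of the matrix degradation windows, 26.3% (5 of 19) of the acid secretion windows and 4.05% of all windows. Among all genes past 2-fold it was held by 3.0% (13 of 434) of the windows of those that rose and 4.74% (34 of 718) of those that fell. Mitf overlapped between conditions, as given above, and Tfeb (-0.41) and Tfe3 (-0.71) fell.

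Interferon-stimulated genes fell on balance by small amounts, with exceptions. Of 35, 9 rose, 21 fell and 5 did not pass (median log2 fold change -0.25). Mx1, an antiviral GTPase gene, fell from 12.8 ± 2.10 to 3.74 ± 0.357 CPM, Ifit2 from 30.1 ± 4.66 to 13.2 ± 0.561 CPM and Ifit3 from 18.5 ± 2.24 to 10.5 ± 1.23 CPM. Cxcl10, a chemokine gene of this list (ENSMUSG00000034855, chr5:92346638-92348889, GRCm38), went against them, from 5.84, 5.87 and 6.06 CPM to 52.1, 46.7 and 49.7 CPM (edgeR log2 fold change 3.06 ± 0.073 SE, adjusted p = 1.04e-36). Its relative Cxcl11 had 2 counts over the M-CSF libraries and 174 over the RANKL libraries, a ratio of 85.2 (exact 95% interval 23.3 to 709), and 41.7% of its exonic bases overlap a predicted gene.

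The windows of Cxcl10 (chr5:92348840-92349139, minus strand) and Ifit3 (chr19:34583279-34583578, plus strand) are set side by side because these genes moved in opposite directions. In both, capitals mark GAAANNGAA, part of the interferon response element, and the AP-1 letters TGANTCA, on either strand. In Cxcl10 they also mark the NF-kB letters GGANTTTCC.
Cxcl10: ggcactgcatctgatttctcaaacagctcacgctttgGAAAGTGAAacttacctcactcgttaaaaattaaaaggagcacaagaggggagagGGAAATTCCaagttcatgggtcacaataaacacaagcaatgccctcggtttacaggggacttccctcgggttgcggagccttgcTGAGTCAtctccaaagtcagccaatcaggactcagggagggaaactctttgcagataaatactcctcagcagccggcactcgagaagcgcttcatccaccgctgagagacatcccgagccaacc
Ifit3: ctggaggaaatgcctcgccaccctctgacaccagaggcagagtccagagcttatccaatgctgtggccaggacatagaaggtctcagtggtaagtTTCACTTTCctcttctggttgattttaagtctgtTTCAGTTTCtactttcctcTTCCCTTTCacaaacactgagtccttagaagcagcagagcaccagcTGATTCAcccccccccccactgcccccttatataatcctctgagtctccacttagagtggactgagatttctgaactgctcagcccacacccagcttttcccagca
Of the 27 interferon-stimulated genes with a window, 66.7% (18) held GAAANNGAA, against 7.35% of all windows. GGANTTTCC was held by 2 of the 27 (7.41%, against 1.25% of all windows), Cxcl10 and Isg15. Isg15 had a log2 fold change of 0.18 (edgeR adjusted p = 0.0169), and its conditions overlapped. TGANTCA was held by 10 of the 27 (37.0%), against 4.74% of all windows.

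Antigen presentation genes of class II fell: of 12, 1 rose, 10 fell and 1 did not pass (median log2 fold change -0.76). The peptide loading gene H2-DMa fell from 11.6 ± 0.845 to 2.75 ± 0.103 CPM and H2-Aa from 24.6 ± 2.51 to 14.2 ± 0.872 CPM. The costimulator gene Cd80 rose from 5.66 ± 0.730 to 13.8 ± 0.788 CPM and Cd40 fell from 14.1 ± 0.336 to 6.07 ± 0.578 CPM. In class I, H2-Q6 and H2-Q7 rose (log2 fold changes 2.58 and 2.73), but these near-identical copies cannot be counted apart with certainty. Of 17 class I genes 5 rose, 7 fell and 5 did not pass (median log2 fold change -0.09). With scaling by library size alone 8 rose and 6 fell (median 0.08). Of 17 chemokine receptor and related receptor genes 2 rose and 15 fell (median log2 fold change -1.54), and 12 fell past 2-fold, beside 7.31% of all genes. S1pr1, a sphingosine phosphate receptor that draws precursors away from bone, stood at 164, 164 and 163 CPM with M-CSF alone and 21.2, 20.6 and 22.2 CPM with RANKL (edgeR log2 fold change -2.94 ± 0.044 SE, adjusted p = 3.42e-45). Of 22 chemokine and inflammatory genes 5 rose, 16 fell and 1 did not pass (median log2 fold change -1.20). The chemokine gene Ccl4 fell from 14.4 ± 0.898 to 1.4 ± 0.0813 CPM.

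Growth factor signalling changed in receptors of several families. Tgfbr2, the type II TGF-beta receptor gene, fell from 563 ± 5.49 to 129.8 ± 3.03 CPM (edgeR log2 fold change -2.12 ± 0.029 SE, adjusted p = 1.12e-46). Of 23 genes of the TGF-beta, BMP and Id list 4 rose, 14 fell and 5 did not pass (median log2 fold change -0.40). Among the risen, the activin receptor genes Acvr1 and Acvr2a went from 36.7 ± 3.19 to 94.7 ± 0.692 CPM and from 11.4 ± 0.782 to 30.4 ± 0.730 CPM. Igf1, a growth factor released in bone, stood at 1509, 1502 and 1541 CPM with M-CSF alone and 443, 444 and 455 CPM with RANKL (edgeR log2 fold change -1.76 ± 0.027 SE, adjusted p = 7.62e-45). Notch1 fell from 102 ± 9.07 to 27.0 ± 1.24 CPM, and of 14 Notch genes 1 rose, 10 fell and 3 did not pass (median log2 fold change -0.48). Il2rg, the common gamma chain gene, rose from 54.9 ± 4.05 to 261 ± 6.46 CPM (edgeR log2 fold change 2.25 ± 0.037 SE, adjusted p = 2.33e-43), although 30.5% of its exonic bases overlap a predicted gene. Il10ra, the IL-10 receptor gene, fell from 121 ± 8.25 to 30.4 ± 0.430 CPM. Of 24 survival and apoptosis genes 8 rose and 12 fell, beside 37.0% and 37.8% of all genes. A further 4 did not pass, and the median log2 fold change was -0.06. With scaling by library size alone 13 rose and 8 fell (median 0.11). Birc3, an inhibitor of apoptosis that NF-kB induces, rose from 39.3 ± 2.46 to 205 ± 2.40 CPM (edgeR log2 fold change 2.38 ± 0.039 SE, adjusted p = 1.66e-43). Bcl2l1, which encodes the anti-apoptotic BCL-XL, stood at 165, 165 and 157 CPM with M-CSF alone and 29.5, 29.7 and 29.8 CPM with RANKL (edgeR log2 fold change -2.46 ± 0.039 SE, adjusted p = 6.07e-44). Bcl2 itself fell from 29.4 ± 0.779 to 8.06 ± 0.111 CPM.

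Secreted signals and feedback genes changed one by one. Of 12 coupling factors and secreted signals of osteoclasts 6 rose, 4 fell and 2 did not pass (median log2 fold change 0.34). Vegfc and C3 (above) rose, and Il1rn, the IL-1 receptor antagonist gene, rose from 14.1 ± 0.900 to 53.3 ± 3.62 CPM (edgeR log2 fold change 1.92 ± 0.059 SE, adjusted p = 4.92e-32). Of 18 STAT and SOCS genes 3 rose, 14 fell and 1 did not pass (median log2 fold change -0.24). Socs1, like Socs3 a feedback inhibitor of cytokine signalling, rose from 1.04 ± 0.219 to 5.00 ± 0.361 CPM. The MAP kinase phosphatase gene Dusp5, a feedback gene of ERK signalling, rose from 2.92 ± 0.750 to 29.2 ± 0.706 CPM (edgeR log2 fold change 3.32 ± 0.096 SE, adjusted p = 4.32e-33). Of 11 genes of M-CSF and related receptors and ligands 3 rose, 7 fell and 1 did not pass (median log2 fold change -0.31). Besides Csf1r, Csf3r, the G-CSF receptor gene, fell from 36.9 ± 4.54 to 5.80 ± 0.255 CPM and Inpp5d, which encodes the phosphatase SHIP1, from 546 ± 31.7 to 269 ± 6.54 CPM. Of 10 interferon regulatory factor genes 1 rose, 7 fell and 2 did not pass (median log2 fold change -0.37), and Irf4, low from the start, fell from 4.11 ± 0.867 to 0.363 ± 0.0797 CPM. Of 23 cytokine receptor genes 5 rose, 16 fell and 2 did not pass (median log2 fold change -0.52). Lifr, the receptor gene for leukaemia inhibitory factor, fell from 11.9 ± 1.65 to 1.20 ± 0.328 CPM, and Il1r1, the IL-1 receptor gene, rose from 0.543 ± 0.140 to 2.60 ± 0.354 CPM.

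The partners of ASXL2 and the Polycomb genes moved little. Of 29, 16 rose, 10 fell and 3 did not pass (median log2 fold change 0.14), beside 37.0% and 37.8% of all genes. None changed past 2-fold, where 4.35% of all genes rose and 7.31% fell so far. Asxl1 (0.20), Bap1 (0.14), Foxk1 (0.21) and Hcfc1 (0.30), which encode ASXL2's closest relative, the deubiquitinase and 2 of its partners, rose by small amounts, the opposite direction to Asxl2. Bap1 was within the 0.17 by which the scaling shifts all genes. Kdm6b, a histone H3K27 demethylase gene, rose from 10.2 ± 0.852 to 20.9 ± 0.254 CPM, and Ezh1, an H3K27 methyltransferase gene, fell from 80.6 ± 4.76 to 49.7 ± 3.40 CPM. With 4 tested genes, the creatine pathway lost Ckb, Gatm (-1.07) and Gamt (-0.85), while the creatine transporter gene Slc6a8 rose by 0.26. Of the 9 monocyte markers 4 rose, 4 fell and 1 did not pass (median log2 fold change -0.72). F13a1, a coagulation factor gene of monocytes, fell from 88.0 ± 2.96 to 9.92 ± 1.11 CPM, and Vcan, the versican gene, rose from 4.64 ± 0.182 to 41.8 ± 2.10 CPM.

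Markers of other cell types were read in the same libraries. Of 16 stromal and osteoblast markers 1 rose, 10 fell and 5 did not pass (median log2 fold change -0.34). Their summed level went from 321 to 352 CPM under M-CSF alone and from 268 to 269.6 CPM with RANKL, with Bglap at 0 in all 6 libraries. The summed level of neutrophil and precursor markers went from 116 to 123 CPM under M-CSF alone and from 41.4 to 43.2 CPM with RANKL, with Ly6g at 0 and Elane, Mpo and Prtn3 at 4 counts or fewer in each group. That of megakaryocyte and platelet markers went from 359 to 423 CPM under M-CSF alone and from 142 to 147 CPM with RANKL, nearly all of it Pf4 (373 ± 32.2 to 137 ± 3.37 CPM), which macrophages also express, with Gp6 at 0. B cell markers went from 214 to 219 CPM under M-CSF alone and from 178 to 188 CPM with RANKL, most of it Blnk (188 ± 3.09 to 170.2 ± 4.42 CPM), with Pax5 and Vpreb1 at 2 counts or fewer in each group. T and NK cell markers went from 97.2 to 99.7 CPM under M-CSF alone and from 78.0 to 87.3 CPM with RANKL, most of it Il7r (94.2 ± 0.878 to 81.2 ± 4.80 CPM), with Cd3d, Cd3e, Cd3g and Cd8a at 3 counts or fewer. No erythroid or adipocyte marker had enough counts to be tested, and of the mast cell markers only Gata2 was tested, which rose from 0.220 ± 0.101 to 2.96 ± 0.299 CPM. The sums that fell did so along with the macrophage genes, and their part in the changes above was not tested.

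The KO libraries, which share none with the flox comparison, gave a second reading of the same treatment. Of the 567 genes that rose past 2-fold in flox cells, 563 were called as rising in KO cells and 417 rose past 2-fold there, 73.5% of the flox genes and 80.8% of the 516 KO genes. Of the 953 that fell past 2-fold, 938 were called as falling and 630 fell past 2-fold, 66.1% of the flox genes and 92.9% of the 678 KO genes. Among all 13030 genes tested, 4627 were called as rising and 4555 as falling in KO cells. The difference of the RANKL effects was then tested against 1.5-fold, and 0.599% of all genes (78) passed, 56 with a higher and 22 with a lower log2 fold change in KO cells. DESeq2 gave 23 and 12.

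Nfatc1 was among the genes with a smaller rise in KO cells, 0.77 against 1.82 (difference -1.05, SE 0.043, edgeR adjusted p = 8.73e-12 against 1.5-fold). Acp5 rose by 1.01 against 2.19 (difference -1.19, SE 0.072, edgeR adjusted p = 5.95e-09 against 1.5-fold), and Jdp2 by 2.40 against 4.02 (difference -1.62, SE 0.095, edgeR adjusted p = 6.79e-12 against 1.5-fold). Maf fell by less in KO cells, with a log2 fold change of -2.86 against -3.91 (difference 1.05, SE 0.045, edgeR adjusted p = 2.28e-11 against 1.5-fold). Ctsk (difference -0.58), Mmp9 (-0.40), Dcstamp (0.19), Ocstamp (-0.03), Mycl (1.26) and Traf1 (0.08) did not pass against 1.5-fold. No group carried Cre with intact Asxl2, so effects of Cre and of the loss of Asxl2 cannot be told apart.

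**Figure D5:**
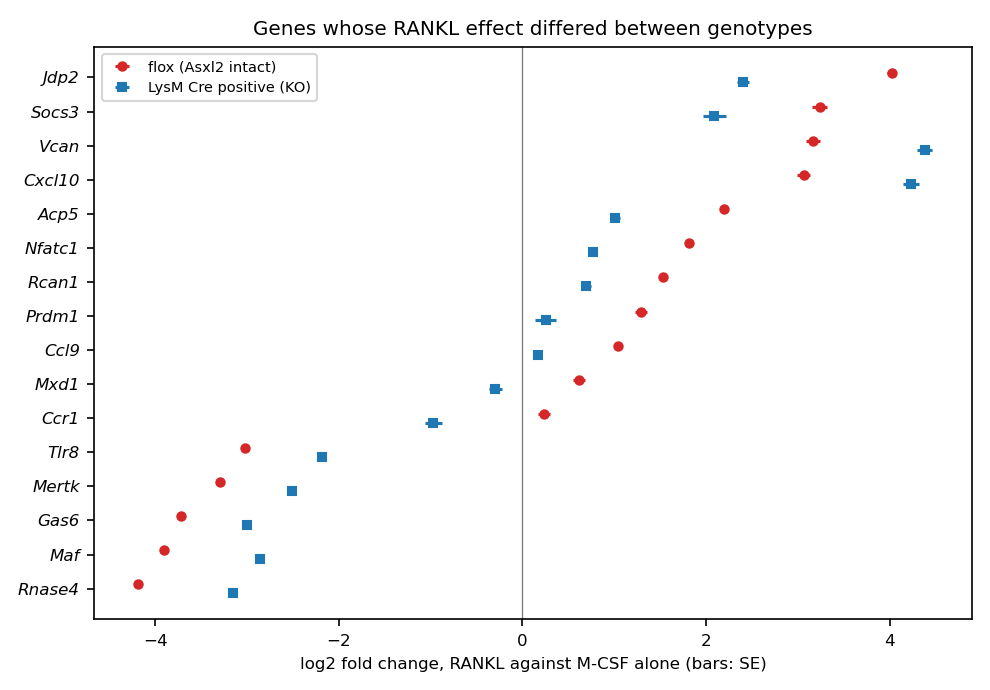
Log2 fold change of RANKL over M-CSF alone in flox cells (red circles) and KO cells (blue squares), with SE bars, for the 16 named genes whose difference passed against 1.5-fold. Acp5, Nfatc1 and Jdp2 rose further in flox cells, Vcan and Cxcl10 rose further in KO cells, and Rnase4, Maf, Gas6, Mertk and Tlr8 fell further in flox cells. The differences of Gas6 and Mertk were lost in most of the alternatives.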

How the data were processed

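RNA-seq of 12 libraries of mouse bone marrow cells was read from 1 count table per library. The deposited values are raw counts per gene over Ensembl release 76 exons (GRCm38), made with featureCounts 1.4.5-p1 from the Subread package without use of strand, per the file headers, after alignment with STAR 2.0.4b, per the submitters' processing notes. Any filter on reads is not given in the sources used here. The members compared and the gene lists were chosen with earlier results of these data known, so a list's count is a description.

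Genes were tested with edgeR 4.0.16 in R 4.3.3 (filterByExpr, TMM, robust quasi-likelihood F test) in 1 fit of all 12 libraries with 4 group means and 8 residual degrees of freedom, with Benjamini-Hochberg adjustment over 13030 genes and calls at an adjusted p under 0.05. Changes past 2-fold, and differences between genotypes past 1.5-fold, were tested with glmTreat. The SE is the log2 fold change over the root of F. Flox libraries held 18834103 to 21042792 counts, and intervals and the floor of 3 counts cover counting error only. The fit was tested on simulated data in which only a small set of genes changed and the spread was fixed. Most genes moved in the real libraries, so that test does not bear on the scaling.

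Named genes were 20 preset genes, the 15 largest rises and falls past 2-fold with a mean of at least 5 CPM, the 10 largest changes in level each way, up to 4 called members of each list by size, related genes, and up to 10 genes switched on or off. The 15 largest rises and falls were taken only from genes whose conditions did not overlap. All other genes named were chosen after their values were seen, among them Relb, Nfkbia, Nfkbie, Junb, Bhlhe40, Klf4, Siglec15, Nop2, Nle1, Ifit3, Isg15 and Asxl1. Alternatives were other scalings, DESeq2 1.42.0, other filters, the 6 flox libraries alone, a replicate block and leaving out each library. Exon overlap was read from the annotation: 23 of the 277 named genes have over 10% of their exonic length in common with a different gene. Promoter windows of 250 bases before to 50 after the start (RefSeq, GRCm38.p6) were found for 9623 of 12962 tested genes with a symbol and searched on both strands. A few items that the rules pick are not reported here.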

Additional observations from a re-analysis of the deposited data

Results flagged for a closer look

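A test of the difference between genotypes against 1.5-fold (edgeR glmTreat, Benjamini-Hochberg adjusted over all genes tested) picked 16 of the named genes, and the log2 effect of RANKL in KO cells minus that in flox cells is given for each. It was negative for Acp5 (-1.19), Nfatc1 (-1.05), Prdm1 (-1.04), Jdp2 (-1.62), Rcan1 (-0.84), Socs3 (-1.15), Mxd1 (-0.91), Ccr1 (-1.20) and Ccl9 (-0.88). Of these, Acp5, Nfatc1, Prdm1, Jdp2, Rcan1, Socs3 and Ccl9 rose in both genotypes and by less in KO cells, with log2 fold changes in KO cells of 1.01, 0.77, 0.25, 2.40, 0.69, 2.09 and 0.17 in that order. Ccr1 and Mxd1 rose in flox cells and had log2 fold changes of -0.97 and -0.29 in KO cells. The difference was positive for Rnase4 (1.03), Maf (1.05), Mertk (0.79), Gas6 (0.72) and Tlr8 (0.84), which fell in both genotypes and by less in KO cells. It was also positive for Vcan (1.21) and Cxcl10 (1.17), which rose by more in KO cells. Under DESeq2 the difference no longer passed for Vcan (adjusted p = 0.0674), Cxcl10 (0.22), Rcan1 (0.229), Prdm1 (0.433), Socs3 (0.684), Mxd1, Mertk and Gas6. Leaving out 1 library also ended it for 5 genes besides Gas6. Cxcl10 was lost without KO M-CSF library 2 (edgeR adjusted p = 0.113). Prdm1 was lost without flox M-CSF library 2, flox RANKL library 3, KO M-CSF library 1 or 2 or KO RANKL library 1 (0.0629 to 0.19). Socs3 was lost without flox M-CSF library 1 or 2, flox RANKL library 3, KO M-CSF library 2 or 3 or KO RANKL library 2 or 3 (0.0727 to 0.291). Mxd1 was lost without flox M-CSF library 1, flox RANKL library 2 or 3, KO M-CSF library 1 or 3 or KO RANKL library 3 (0.0804 to 0.247). Mertk was lost in 16 and Gas6 in 17 of the 18 alternatives, so that both lie at the threshold. The other 8 genes passed in all 18.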

How the results depend on the processing

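Of the 275 named genes called in flox cells, 269 kept their call under every alternative, and Tnfrsf11a, mt-Co1, S100a8, Blnk, Il7r and Acp2 did not. Scaling by library size alone gave 6320 calls higher and 3737 lower and turned the sign of Blnk (0.023) and Acp2 (0.018). Slc2a6, not called, reached 0.18 with scaling by library size alone and then passed (edgeR adjusted p = 0.0203), changed sign with no filter (-0.001) and ranged from -0.089 to 0.072 without 1 library. Counts of calls stayed within 1.5 times of those reported, except that DESeq2 put the difference between genotypes past 1.5-fold in 23 genes higher in KO cells, against 56, and 12 lower, against 22. DESeq2 called 4515 rises and 4590 falls, 450 and 759 of them past 2-fold. Leaving out 1 library at a time gave 4638 to 4835 rises and 4740 to 4998 falls, 531 to 599 and 907 to 988 past 2-fold, 40 to 55 differences higher and 16 to 20 lower in KO cells, and 4330 to 4654 rises and 4410 to 4714 falls in KO cells. Libraries with the same number did not deviate together (correlations -0.059, -0.028 and -0.059), no flox M-CSF library correlated best with the RANKL library of its own number, and a fit with the replicate block gave 4791 rises and 4894 falls, 561 and 945 past 2-fold, and 50 and 21 differences. The difference cannot be given from the 6 flox libraries alone. Depth limits genes with a few counts, such as Calcr and Oscar.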
